A study of Mus musculus with 9 samples.

Results

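The STAT and SOCS genes described here are 9 of the 56289 genes in the deposited mouse gene table, chosen by name: the transcription factor genes Stat2, Stat3, Stat5a, Stat5b and Stat6 and the inhibitor genes Socs1, Socs2, Socs3 and Cish. RNA was sequenced from cultures labelled as RAW264.7, a macrophage-like line from BALB/c mice, in 3 groups of 3 libraries. Con is labelled as untreated, TNF-α received recombinant human TNF-α at 20 ng/ml for 24 h, and TNF-α+WBT received the same TNF-α together with WBT, a herbal tablet preparation, at 1.0 μg/ml. The labels write WBP for the drug, which was taken to be the WBT of the study's methods, and no group received WBT alone. The TNF-α dose and the species of TNF-α come from the methods of the study, whose matching cytokine assay gave its control cells PBS. Estimated depth was 16854766 to 26183014 fragments per library. The macrophage label went against its markers: of 18 macrophage genes, 8 were at 0 FPKM in every library, among them Ptprc (CD45), Spi1 (PU.1), Itgam and Adgre1 (F4/80), and 1 was above 1 FPKM in all libraries. Of 16 fibroblast genes 14 were above that level throughout, and of 12 Schwann cell genes 9 were, so the cells are called cultures below.

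In the JAK-STAT pathway a cytokine receptor activates the JAK kinases bound to it, and these phosphorylate STAT proteins, which pair, enter the nucleus and switch genes on. SOCS proteins are among the genes switched on, and they close the loop: they bind the receptor or the kinase and, through their SOCS box, bring it to a ubiquitin ligase. TNF-α itself signals mainly through NF-κB and MAP kinases, and it reaches this pathway through cytokines and receptors that its target genes encode. The libraries measured mRNA and not STAT phosphorylation.

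After TNF-α, Stat2 was higher and Socs3 was lower than in Con, by 23.7% and 14.0%, and the other members did not pass the test. In TNF-α against Con, 2 of the 9 members had a Benjamini-Hochberg adjusted p under 0.05 in limma, against 4.86% of the 25417 genes tested, with 1 higher (2.94% of all genes) and 1 lower (1.93%). The 3 libraries of each group did not overlap for 4 members, Stat2, Stat6, Socs2 and Socs3, and the same held for 21.2% of all genes. The 4 also had an unadjusted limma p under 0.05, a share that was 16.1% over all genes. No member combined such a p with a fold over 2, the thresholds of the study, while 2.42% of all genes did. Every member but Cish averaged 1 FPKM or more, as did 12684 of the genes tested. Of those 12684 genes 8.37% passed the adjusted threshold, 24.1% had an unadjusted limma p under 0.05 and 3821 had groups without overlap. In 206 of them such a p came with a fold over 2. The median log2 fold change of the members was 0.13 and that of all genes tested was 0.00. In these bulk samples fewer cells of a kind and less RNA per cell cannot be told apart.

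When WBT was added to TNF-α, no member passed. Their count was 0 of 9 in TNF-α+WBT against TNF-α, where a single gene of all those tested passed the adjusted threshold (0.00393%). Socs3 alone among the members had an unadjusted limma p under 0.05 (6.31% of all genes) and groups without overlap (11% of all genes). The members with such a p and a fold over 2 were again 0, against 1.12% of all genes. In TNF-α+WBT against Con, Stat2 was higher and was the 1 member of 9 that passed (3.71% of all genes, 2.31% with a higher level). Stat2, Stat5a and Stat6 had an unadjusted limma p under 0.05 there (14.7% of all genes), Stat2 and Stat6 had groups without overlap (19.5%), and none reached a fold over 2 as well (2.29%). Of the 12684 genes that averaged 1 FPKM or more, 6.91% had such a p in TNF-α+WBT against TNF-α. Groups without overlap numbered 1663 there. In TNF-α+WBT against Con 6.46% of the 12684 passed, 21.6% had such a p and 3429 had groups without overlap. The 3 comparisons share groups pairwise, so their values are given side by side and not as repeats of each other.

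**Figure D1:**
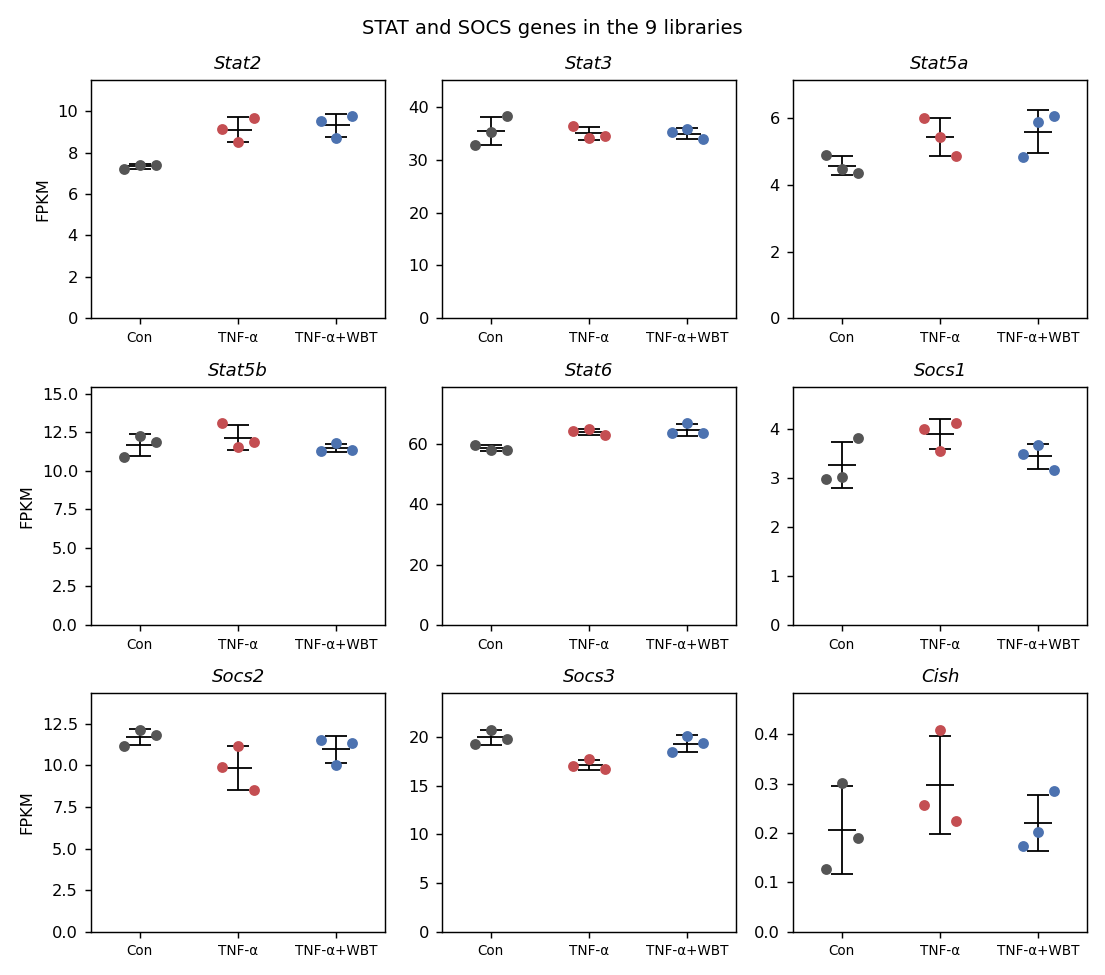
FPKM (vertical axes, each from 0) of the 9 members in Con, TNF-α and TNF-α+WBT; points are the 3 libraries of a group and black bars the mean ± SD. Stat2 lies higher in both TNF-α groups than in Con, Socs3 lies lowest in TNF-α, and Stat3 and Stat5b overlap between all groups.

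**Figure D2:**
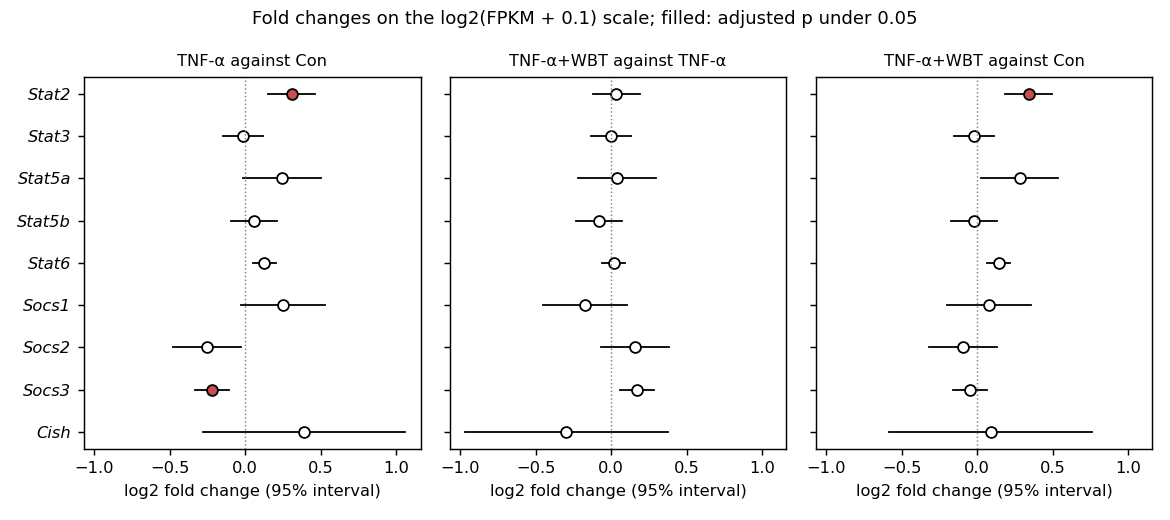
Log2 fold changes of the 9 members on the log2(FPKM + 0.1) scale (horizontal axes) in the 3 comparisons; lines are 95% intervals from limma and filled points have an adjusted p under 0.05. The filled points are Stat2 and Socs3 in TNF-α against Con and Stat2 in TNF-α+WBT against Con, and no point is filled in TNF-α+WBT against TNF-α.

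Levels among the members differed far more than levels between groups. Values are FPKM, fragments scaled to transcript length and to library size, so they can be set side by side between genes. In Con the order ran from Stat6 (58.6 FPKM) through Stat3 (35.5), Socs3 (19.9), Socs2 (11.7), Stat5b (11.7), Stat2 (7.34), Stat5a (4.57) and Socs1 (3.27) to Cish (0.206). Neighbours in that order did not overlap between libraries, except Socs2 and Stat5b. In TNF-α the overlapping neighbours were Socs2 and Stat2, and in TNF-α+WBT they were Stat5b and Socs2. Stat6 stood at the 95.8th percentile of the genes tested in Con, and Cish at the 35.3rd.

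Short stretches of promoter are printed because STAT proteins and their partners are known to bind such letters, and because they show which members carry them. The windows come from RefSeq promoters on GRCm38.p6, which run from 250 bases before to 50 after a gene's start, on both strands. Of the 9 members 8 were in that table, with 10 promoters, and Socs2 had no entry. TTCNNNGAA, the spacing that STAT3 and STAT5 pairs favour, occurred in 8.30% of 32851 promoters and, among the members, in Socs3 and Cish. TTC and GAA with 4 letters between them, the wider spacing of STAT6, occurred in 6.95% of all promoters and among the members in Stat2. The interferon-stimulated response element that STAT2 reaches with IRF9, searched as 2 copies of GAAA with 2 letters between them, occurred in 3.44% of all promoters and among the members in Stat2 and Socs1. A loose NF-κB form, GGG and CC with 5 letters between them, occurred in 50.8% of all promoters and in 7 of the 8 members, so it sets none of them apart. Each sequence runs 5′ to 3′ on the gene's strand, and capitals mark the motif, read from the opposite strand for the first motif of Stat2.
Stat2, chr10:128270272-128270301, + strand: ctggTTTCAGTTTCctTTCCCTAGAActca
Socs1, chr16:10785597-10785626, - strand: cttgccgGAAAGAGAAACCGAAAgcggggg
Socs3, chr11:117969502-117969530, - strand: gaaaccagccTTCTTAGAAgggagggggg
Cish, chr9:107296654-107296683, + strand: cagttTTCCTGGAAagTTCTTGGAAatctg
In Socs1 the capitals hold 2 response elements that share 4 letters, 83 and 77 bases before the start, and in Cish 2 copies of TTCNNNGAA lie 1 and 12 bases after it. These starts are the RefSeq starts of the promoter table. For Stat2, Socs3 and Cish they differ from the outer ends of the GENCODE genes given below, and for Socs1 the start is the same. The windows of Socs3 and Cish lie inside those gene spans. In Stat2 the response element begins 222 bases before the start and the STAT6-type spacing 210 bases before it, and they do not overlap. A match is a description of letters and was not tested as a binding site in these cultures.

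Stat2 (ENSMUSG00000040033, chr10:128270559-128292849, + strand, GRCm38) encodes the STAT that joins IRF9 in ISGF3, the complex through which type I interferons act. Its values were 7.21, 7.42 and 7.40 FPKM in Con, 9.16, 8.51 and 9.68 in TNF-α, and 9.52, 8.71 and 9.77 in TNF-α+WBT. Every library of both stimulated groups was above every Con library, and the stimulated groups overlapped each other. Stat2 rose by 23.7% in TNF-α against Con, a log2 fold change of 0.31 ± 0.07 (SE; adjusted p = 0.0379 in limma). The log2 fold change was 0.34 ± 0.07 in TNF-α+WBT against Con (adjusted p = 0.0289), and in TNF-α+WBT against TNF-α it was 0.03 with a 95% interval of -0.12 to 0.19. The direction against Con held under every setting and with each library left out, but the call in TNF-α against Con did not. Its adjusted p ran from 0.0225 to 0.0893 over the 10 other settings and from 0.0366 to 0.128 with 1 library left out, where it stayed under 0.05 without TNF-α replicate 2 or TNF-α+WBT replicate 2 and rose over it without each other library. The call in TNF-α+WBT against Con was lost without any Con library, TNF-α replicate 1, or TNF-α+WBT replicate 1 or 3 (adjusted p 0.0313 to 0.101 over all libraries left out).

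Stat6 (ENSMUSG00000002147, chr10:127642986-127660957, + strand) carries the signal of IL-4 and IL-13. It had the highest level of the 9 genes, with 59.7, 58.1 and 57.8 FPKM in Con, 64.1, 64.8 and 62.9 in TNF-α, and 63.4, 66.9 and 63.7 in TNF-α+WBT. Both stimulated groups lay above Con without overlap. The difference was small, 9.2% in TNF-α against Con (log2 0.13 ± 0.03, SE), and its adjusted p in limma was 0.0788. Against Con, TNF-α+WBT was 10.4% higher (log2 0.14 ± 0.03, SE), with an adjusted p of 0.0583 in limma that passed with a pseudocount of 1 (0.0455) or a filter at a mean of 1 FPKM (0.0409), in a range of 0.0409 to 0.332 over the settings. The 95% interval of its log2 fold change in TNF-α+WBT against TNF-α ran from -0.06 to 0.09. Stat6 overlaps Nab2 on the opposite strand by 40 exon bases, 0.909% of its own, which these values may not separate.

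Stat3 (ENSMUSG00000004040, chr11:100885098-100939540, - strand) encodes the main STAT of IL-6 and the other cytokines that use the gp130 receptor. Its values were 32.9, 35.3 and 38.3 FPKM in Con, 36.5, 34.1 and 34.5 in TNF-α, and 35.2, 35.9 and 33.9 in TNF-α+WBT. The 3 groups overlapped, and their means were 35.5, 35.0 and 35.0 FPKM. The log2 fold change in TNF-α against Con was -0.02, with a 95% interval of -0.15 to 0.11, and in TNF-α+WBT against TNF-α it was 0.00, with an interval of -0.13 to 0.13. As folds these intervals ran from 0.901 to 1.08 and from 0.912 to 1.10.

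Stat3 is made in a long form, α, and in a shorter form, β, whose mRNA skips 50 bases at the start of an exon near the end of the coding sequence. The exon is printed because it separates these forms. In Stat3-203 it is exon 23, 113 bases at chr11:100889478-100889590 on the - strand of GRCm38, read 5′ to 3′ on the gene's strand, and the capitals are the 50 bases that Stat3-202 lacks.
Stat3 exon 23: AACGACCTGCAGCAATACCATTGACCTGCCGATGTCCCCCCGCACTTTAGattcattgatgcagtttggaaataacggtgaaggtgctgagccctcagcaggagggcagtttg
Of the 4 coding transcripts of Stat3 in the annotation 3 hold these bases and 1, Stat3-202, lacks them. The share of Stat3-202 in the summed FPKM of the 4 was 14.1%, 10.0% and 9.30% in the Con libraries, 11.7%, 12.7% and 13.8% in TNF-α, and 16.9%, 13.4% and 13.3% in TNF-α+WBT. The Con and TNF-α ranges overlapped, as did Con and TNF-α+WBT. The mean share was 11.1% ± 2.57 (SD, n = 3) in Con, 12.7% ± 1.07 in TNF-α and 14.5% ± 2.04 in TNF-α+WBT. Stat3-202 also differs in length, with 6042 bases against 2927 in Stat3-201 and 4516 in Stat3-203. The share therefore depends on how fragments were assigned over whole transcripts and is not a measure of these 50 bases alone. Stat3-202 itself did not pass in any comparison, with an adjusted p of 0.839, 0.943 and 0.641 in limma over all transcripts for TNF-α against Con, TNF-α+WBT against TNF-α and TNF-α+WBT against Con.

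Stat5a (ENSMUSG00000004043, chr11:100859351-100885169, + strand) and Stat5b (ENSMUSG00000020919, chr11:100780731-100850724, - strand) lie side by side with Stat3, and their proteins carry growth hormone, prolactin and IL-2 family signals. Stat5a was at 4.89, 4.49 and 4.34 FPKM in Con, 6.01, 5.45 and 4.86 in TNF-α, and 4.85, 5.88 and 6.06 in TNF-α+WBT. Most stimulated libraries were above Con, yet in both stimulated groups the lowest library reached the Con range. Its log2 fold change was 0.24 (95% interval -0.02 to 0.50) in TNF-α against Con, with an adjusted p of 0.345 in limma, and 0.28 (0.02 to 0.54) in TNF-α+WBT against Con, with 0.289. Stat5b was at 10.9, 12.3 and 11.9 FPKM in Con, 13.1, 11.5 and 11.8 in TNF-α, and 11.3, 11.8 and 11.3 in TNF-α+WBT. All groups of Stat5b overlapped, and its log2 fold change in TNF-α against Con was 0.06 (95% interval -0.09 to 0.21).

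The 2 genes share 608 windows of 50 bases between their transcripts, 8.21% of the windows of Stat5a and 11.0% of those of Stat5b, so some fragments could be assigned to either. Their summed level avoids that choice and was 16.2 ± 0.489 FPKM (SD, n = 3) in Con, 17.6 ± 1.32 in TNF-α and 17.1 ± 0.809 in TNF-α+WBT. Stat5b exceeded Stat5a by 1.87 to 2.74 times in every library. Stat5a also shares 72 exon bases with Stat3 on the opposite strand, 1.01% of its exon bases, and Stat3 had several times its level.

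Socs3 (ENSMUSG00000053113, chr11:117966079-117970047, - strand) encodes the inhibitor that binds gp130 and the JAK beside it, and it is known as a STAT3 target. It was at 19.3, 20.7 and 19.8 FPKM in Con, 17.0, 17.7 and 16.7 in TNF-α, and 18.4, 20.1 and 19.4 in TNF-α+WBT. The TNF-α libraries lay below all 6 others, and the Con and TNF-α+WBT libraries overlapped. Socs3 fell by 14.0% in TNF-α against Con (log2 fold change -0.22 ± 0.05, SE; adjusted p = 0.0417 in limma). In TNF-α+WBT against TNF-α it was 12.7% higher, a log2 fold change of 0.17 ± 0.05 (SE) with an unadjusted p of 0.00726 in limma and an adjusted p of 0.625, which did not pass. Against Con, TNF-α+WBT gave -0.05 (95% interval -0.16 to 0.07). The fall in TNF-α kept its direction throughout, with an adjusted p of 0.0287 to 0.157 over the other settings. With 1 library left out that p was 0.0446 to 0.140, and it was under 0.05 only without TNF-α+WBT replicate 1 or 2.

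Socs2 (ENSMUSG00000020027, chr10:95385362-95417180, - strand) restrains growth hormone signalling. Its values were 11.2, 12.2 and 11.8 FPKM in Con, 9.89, 11.1 and 8.54 in TNF-α, and 11.5, 10.0 and 11.4 in TNF-α+WBT. The TNF-α libraries were lower than the Con libraries by a narrow margin and overlapped with TNF-α+WBT. The log2 fold change in TNF-α against Con was -0.25 (95% interval -0.48 to -0.03), with an adjusted p of 0.246 in limma. Against TNF-α, the group with WBT gave 0.16 (-0.07 to 0.39). Of Socs1, Socs2, Socs3 and Cish, none passed in TNF-α+WBT against Con.

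Socs1 (ENSMUSG00000038037, chr16:10782240-10785536, - strand) encodes an inhibitor of the JAK kinases that is known for restraining interferon signals. It was at 2.98, 3.02 and 3.82 FPKM in Con, 4.01, 3.55 and 4.13 in TNF-α, and 3.48, 3.67 and 3.17 in TNF-α+WBT. Con replicate 3 lay inside the TNF-α range, and the third group overlapped both. The log2 fold changes were 0.25 (95% interval -0.03 to 0.53) in TNF-α against Con and -0.17 (-0.45 to 0.10) in TNF-α+WBT against TNF-α.

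Cish (ENSMUSG00000032578, chr9:107296026-107302784, + strand) encodes CIS, which is induced by STAT5 and blocks its docking on receptors. It was near the limit of detection, at 0.127, 0.302 and 0.189 FPKM in Con, 0.257, 0.409 and 0.225 in TNF-α, and 0.174, 0.202 and 0.284 in TNF-α+WBT. These values stand for an estimated 11.0 to 27.3 fragments per library, and all 3 groups overlapped. The coefficient of variation between Con libraries was 42.9%, and counting error alone would give 26.4% at that depth. The 95% interval in TNF-α against Con was wide, -0.28 to 1.06 on the log2 scale around 0.39. A fold of 2 for Cish was therefore not excluded in that comparison. The processed transcript Cish-202, which is not coding, held 8.34% to 25.2% of the gene value in Con. Its share was 6.94% to 52.2% in TNF-α and 55.2% to 100% in TNF-α+WBT. The coding Cish-201 was at 0, 0 and 0.127 FPKM in TNF-α+WBT. With so few fragments this division is uncertain, and neither transcript passed in limma.

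Exact two-sided permutation tests of single members could not pass, since 3 libraries against 3 give no p below 0.1. Stat2, Stat6, Socs2 and Socs3 reached that smallest value in TNF-α against Con, Socs3 in TNF-α+WBT against TNF-α, and Stat2 and Stat6 in TNF-α+WBT against Con.

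The members have 57 transcripts that could be tested, and 0 of them passed in any comparison in limma, against 0.635% of 80149 transcripts in TNF-α against Con, 0.0424% in TNF-α+WBT against TNF-α and 0.455% in TNF-α+WBT against Con. At an unadjusted p under 0.05 they numbered 7, 4 and 5, against 8.14%, 5.17% and 7.67% of all transcripts. For Socs2 the division between its coding transcripts jumped from library to library. Socs2-214 was at 6.22, 0.0392 and 5.47 FPKM in Con, 4.25, 5.26 and 0.0362 in TNF-α, and 4.64, 4.28 and 0.0477 in TNF-α+WBT. In the 3 libraries where it was nearly absent, Socs2-201 was at 8.13 and 7.89 FPKM in Con replicate 2 and TNF-α+WBT replicate 3, and Socs2-213 at 4.58 in TNF-α replicate 3. The Socs2 gene value varied less, from 8.54 to 12.2 FPKM. Its lowest value was in TNF-α replicate 3 and its highest in Con replicate 2, which are among these libraries. Stat5b-202 likewise stood at 0.0136 FPKM in TNF-α replicate 1 and 0.0146 in TNF-α+WBT replicate 3, and at 2.02 to 3.61 in the other libraries. The gene sums, and not these transcripts, are the values used above.

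**Figure D3:**
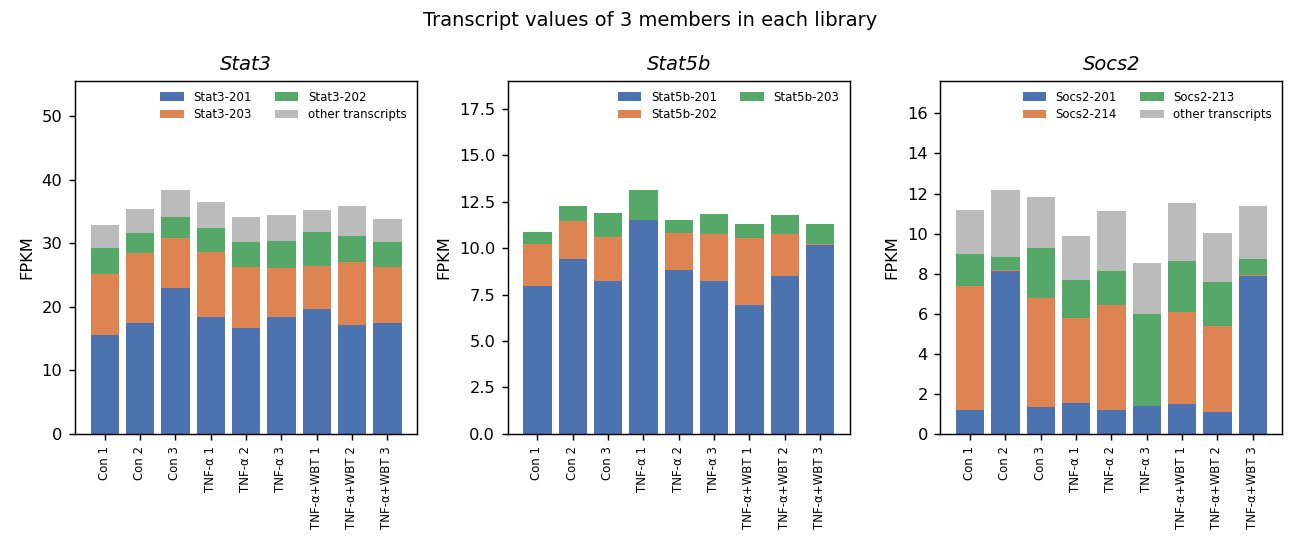
FPKM of the transcripts of Stat3, Stat5b and Socs2 stacked for each of the 9 libraries (bars start at 0; grey holds the remaining transcripts). Socs2-214 is nearly absent from Con 2, TNF-α 3 and TNF-α+WBT 3, and Stat5b-202 from TNF-α 1 and TNF-α+WBT 3. The bar heights of these genes vary less, with Socs2 lowest in TNF-α 3 and highest in Con 2.

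The kinases and receptors upstream of the STATs were compared next, as lists by role. The counts below stand against 4.86% of all genes in TNF-α against Con and 8.37% of the 12684 genes tested that averaged 1 FPKM or more. Among the JAK kinases 1 of 4 passed in TNF-α against Con. This was Jak2, the kinase of growth hormone, gp130 and interferon-γ receptors, with a mean of 8.90 FPKM in Con, 11.2 in TNF-α and 10.4 in TNF-α+WBT, and a log2 fold change of 0.32 ± 0.07 (SE; adjusted p = 0.0368 in limma). The Jak2 call was lost without every single library but TNF-α replicate 1 (adjusted p 0.0264 to 0.113). The median of the 4 kinases was 0.20.

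Of 13 gp130 family ligands and receptors tested, 3 rose and 2 fell in TNF-α against Con. Il6st, which encodes gp130 itself, was at 43.4, 45.1 and 45.3 FPKM in Con, 55.4, 63.6 and 64.1 in TNF-α, and 63.2, 62.7 and 63.8 in TNF-α+WBT. This shared signalling chain of the family lay higher in every stimulated library than in Con (log2 0.45 ± 0.06, SE, adjusted p = 0.00228 in limma for TNF-α against Con). The same held for the receptor genes Lifr and Osmr. Lifr, the LIF receptor, rose by 0.47 ± 0.05 on the log2 scale (adjusted p = 0.000832), from a mean of 11.1 to 15.4 FPKM. Osmr, the oncostatin M receptor, was the third gene that rose, from a mean of 5.38 to 7.37 FPKM. Cntf, which encodes ciliary neurotrophic factor, went the other way, with a mean of 4.64 FPKM in Con, 1.46 in TNF-α and 1.60 in TNF-α+WBT (log2 -1.61 ± 0.20, SE, in TNF-α against Con, adjusted p = 0.00232 in limma). Its receptor gene Cntfr fell by 0.75 ± 0.10 on the log2 scale (adjusted p = 0.00359), from 4.10 to 2.39 FPKM. Cntf shares exon bases with Zfp91 on the same strand, so its value is uncertain. Ciliary neurotrophic factor is known as a product of Schwann cells. The summed level of 12 Schwann cell markers was 862 to 923 FPKM in Con, 710 to 768 in TNF-α and 768 to 799 in TNF-α+WBT, and its part in the values of Cntf and Cntfr was not tested. In TNF-α+WBT against Con the list again had 3 genes higher and 2 lower, and its median log2 fold change was 0.05 in TNF-α against Con and -0.05 here.

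Both chains of the interferon-γ receptor passed among the 6 genes tested from the list of interferon receptors and ligands, all of them receptor genes. The ligand genes of that list, Ifnb1 and Ifng, were listed at 0 FPKM in every library and could not be tested. Ifngr2, the chain that brings JAK2, was at 12.3, 10.5 and 10.6 FPKM in Con, 27.7, 27.5 and 26.9 in TNF-α, and 26.2, 26.6 and 24.9 in TNF-α+WBT. With a log2 fold change of 1.29 ± 0.06 (SE; adjusted p = 9.26e-06 in limma) it more than doubled, and its groups were far apart. Ifngr1 had means of 31.5, 47.7 and 44.0 FPKM in Con, TNF-α and TNF-α+WBT and a log2 fold change of 0.60 ± 0.14 (SE; adjusted p = 0.0461 in TNF-α against Con), a call that ended under 7 of the 10 other settings (adjusted p 0.0254 to 0.113) and without each library except TNF-α+WBT replicates 1 and 2 (0.043 to 0.141). Of 11 tested genes of the γc, IL-4 and IL-13 receptors and ligands, Il13ra1 passed. This chain of the IL-13 receptor, which lies upstream of STAT6, rose by 0.40 ± 0.04 on the log2 scale (SE; adjusted p = 0.00118), with means of 15.9, 20.9 and 19.9 FPKM. Among the growth hormone, prolactin and βc receptors and ligands 0 of 6 passed, and 1 had an unadjusted limma p under 0.05 (16.1% of all genes).

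No gene among the inhibitors and degradation partners that work beside SOCS proteins passed. In TNF-α against Con, 0 of 12 other inhibitors of the pathway, which are PIAS proteins, phosphatases, CBL proteins, LNK and USP18, passed in limma, and 1 had an unadjusted p under 0.05. Likewise 0 of 6 SOCS box ubiquitin ligase partners passed, with 0 at an unadjusted p under 0.05, and their log2 fold changes lay between -0.11 and 0.13. Of the remaining STAT and SOCS genes 5 of 6 could be tested and 0 passed, with 2 at an unadjusted p under 0.05.

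**Figure D4:**
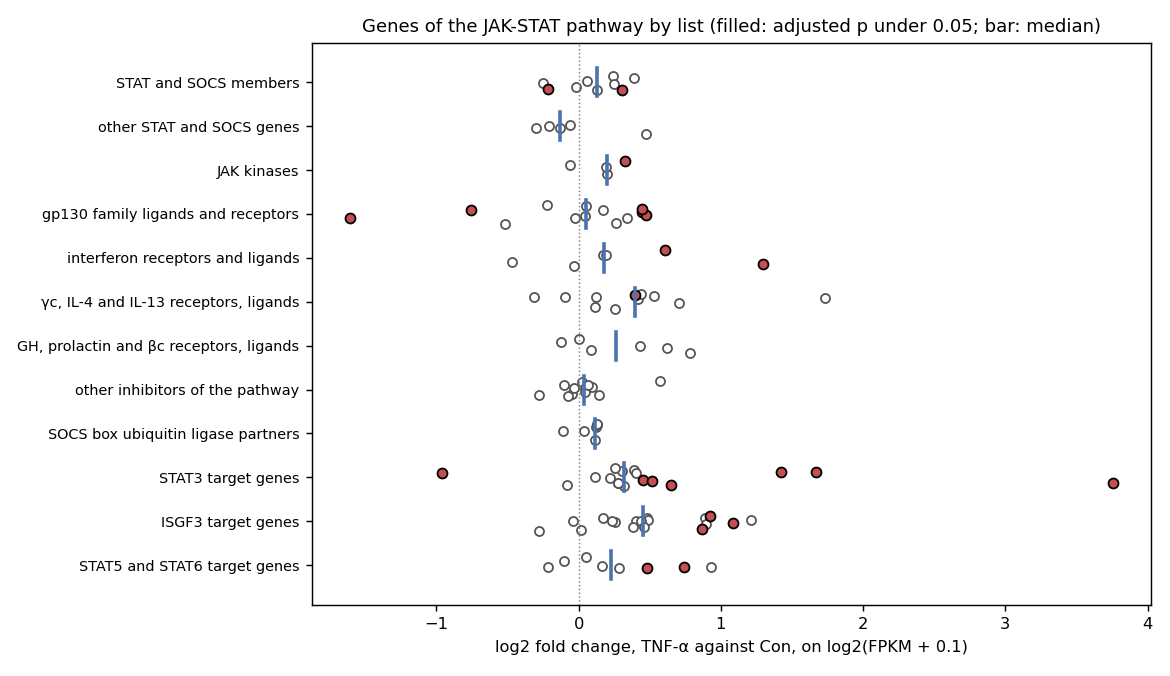
Log2 fold changes in TNF-α against Con on the log2(FPKM + 0.1) scale (horizontal axis) for the members and for the other genes of the pathway by list; each point is a gene, filled points have an adjusted p under 0.05, and bars are list medians. The filled points of the STAT3 targets run up to Saa3 at 3.75, a value that depends on the pseudocount because Saa3 is listed at 0 in Con, while the members stay between -0.25 and 0.39.

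Known targets of the STATs included larger fold changes than the STAT genes themselves. Of 17 STAT3 target genes tested 6 rose and 1 fell in TNF-α against Con (4.86% of all genes passed, and 8.37% of those that averaged 1 FPKM or more), and their median log2 fold change was 0.32. Bcl3, an IκB family protein, was at 3.94, 5.82 and 4.68 FPKM in Con, 13.4, 15.5 and 17.2 in TNF-α, and 13.2, 11.8 and 10.4 in TNF-α+WBT. Its libraries formed 3 separate ranges, with a log2 fold change of 1.67 ± 0.15 (SE; adjusted p = 0.000404 in limma) in TNF-α against Con. Pim1, a serine kinase that promotes survival, rose by 1.42 ± 0.09 on the log2 scale (SE; adjusted p = 3.77e-05), with means of 4.25, 11.6 and 10.9 FPKM. Saa3, an acute phase gene, was listed at 0 in all Con libraries and at 0.790, 1.71 and 1.43 FPKM in TNF-α and 1.03, 1.73 and 0.575 in TNF-α+WBT. Ccnd1, the cyclin D1 gene, rose by 0.52 ± 0.04 (log2, SE; adjusted p = 1e-04), from 84.9 to 122 FPKM. Cebpd, which encodes a transcription factor of the acute phase, was at 7.33, 6.85 and 6.83 FPKM in Con with a mean of 11.1 in each stimulated group, and passed in both comparisons with Con (log2 0.65 ± 0.07, SE, in each). Junb rose as well, from 68.8 to 94.1 FPKM, and its AP-1 partner Fos was the 1 that fell, from 9.18 to 4.66 FPKM. Many of these genes are also known NF-κB or AP-1 targets, and the list does not separate these inputs. Bcl3, Pim1, Ccnd1, Cebpd, Junb, Irf7 and Tgm2 share exon bases with a gene on the opposite strand.

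Of 18 ISGF3 target genes 3 rose in TNF-α against Con, beside the same 4.86% and 8.37%, and the median of the list was 0.45 on the log2 scale. Many genes of this list averaged less than 1 FPKM in every group, where fold changes are imprecise, so that median is uncertain. Bst2, which encodes tetherin, was at 41.3, 43.5 and 41.9 FPKM in Con, 85.3, 91.2 and 92.5 in TNF-α, and 77.3, 82.8 and 78.7 in TNF-α+WBT. The groups lay in 3 separate ranges, and the log2 fold change in TNF-α against Con was 1.09 ± 0.04 (SE; adjusted p = 3.07e-06 in limma). Ddx58, the gene of the RNA sensor RIG-I, rose by 0.92 ± 0.07 (log2, SE; adjusted p = 8.85e-05), from 12.0 to 22.8 FPKM. Oasl2, an oligoadenylate synthetase-like gene, had a log2 fold change of 0.87 ± 0.20 (SE; adjusted p = 0.0493), which ended under 4 of the 10 other settings (adjusted p 0.025 to 0.106) and without each library except Con replicate 2 and TNF-α replicate 3 (0.0315 to 0.155). Irf7, an interferon regulatory factor, passed only in TNF-α+WBT against Con (log2 1.05 ± 0.23, SE, adjusted p = 0.0484 in limma). Its levels were low, with means of 0.501 FPKM in Con, 1.015 in TNF-α and 1.14 in TNF-α+WBT. The TNF-α libraries (0.816, 1.25 and 0.983 FPKM) also lay above every Con library, and they overlapped with TNF-α+WBT. The Irf7 call was lost with any library left out (adjusted p 0.058 to 0.149). Of 8 STAT5 and STAT6 target genes that could be tested 2 rose in TNF-α against Con. These were Tgm2, which encodes transglutaminase 2, by 0.48 ± 0.03 (log2, SE; adjusted p = 8.75e-05) from 51.2 to 71.5 FPKM, and Igf1, insulin-like growth factor 1, by 0.74 ± 0.15 (adjusted p = 0.0289). The Igf1 call was lost without Con replicate 1 or 3, TNF-α replicate 2 or 3, or TNF-α+WBT replicate 2 (adjusted p 0.00285 to 0.105).

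No gene of any list passed in TNF-α+WBT against TNF-α in limma. At an unadjusted p under 0.05 there were 4 of the 17 STAT3 targets, 2 of the 12 other inhibitors, 1 of the 18 ISGF3 targets and 1 of the 8 STAT5 and STAT6 targets, against 6.31% of all genes, and the other 7 lists had 0. They include Bst2, with a log2 fold change of -0.17 ± 0.04 (SE; unadjusted p = 0.00375 in limma, adjusted p = 0.555), and Bcl3, with -0.38 ± 0.15 (unadjusted p = 0.0373, adjusted p = 0.763). In both the TNF-α+WBT libraries lay between the other groups, without overlap with TNF-α, which held for 11% of all genes in this comparison. Ptpn6, among the other inhibitors, lay outside both other groups on average, with means of 2.74, 2.61 and 3.41 FPKM in Con, TNF-α and TNF-α+WBT. In TNF-α+WBT against Con the counts were 7 of 17 STAT3 targets, 3 of 18 ISGF3 targets and 2 of 8 STAT5 and STAT6 targets, against 3.71% of all genes and 6.46% of those that averaged 1 FPKM or more, and Jak2 and Ifngr1 were not among the genes that passed.

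For the 3 members with the smallest p in TNF-α against Con, the genes whose pattern was most like theirs were sought among the 12685 genes that averaged 1 FPKM or more, by Pearson's r of log2(FPKM + 0.1) over the 9 libraries. The points share the same 3 groups, so the coefficients are a description. Stat2 was most like Uap1l1 (r = 0.983), Apcdd1 (0.976) and Chml (0.971). Stat6 was most like Junb (0.981), Zbp1 (0.978) and Ier3 (0.977), which are genes that were higher in both stimulated groups, Zbp1 with means of 1.29, 3.00 and 3.36 FPKM. Socs3 was most like Atmin (0.973), the ribosomal protein gene Rps13 (0.972) and the interferon-inducible gene Ifi202b (0.944). In these 3 genes the mean was also lowest in TNF-α, as for Rps13 at 450.5, 410.6 and 443 FPKM.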

How the data were processed

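The authors deposited 1 table of FPKM per gene and 1 of FPKM per transcript for the 9 libraries, made from paired-end poly(A) libraries with HISAT2, StringTie and Ballgown; tool versions and the genome build are not given in the sources used here. FPKM is already scaled to library size and length, and without strand information a gene and an overlapping antisense gene cannot be told apart. Each deposited column matched 1 sample title, no pair of libraries held identical values, and the study describes the libraries of a group as biological replicates. Symbols were matched for 55144 of 56289 gene identifiers, and positions are from GENCODE M21 (GRCm38).

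The test was limma 3.58.1 in R 4.3.3 (lmFit, then eBayes with a trend) on log2(FPKM + 0.1), for every gene over 0 FPKM in 3 libraries or more. A single model held the 3 group means, and p-values were adjusted by Benjamini-Hochberg over all 25417 genes. A fold change on that scale understates the change of low genes. The study's thresholds, an unadjusted p under 0.05 with a fold over 2, were applied as well. Depth was estimated from 10720 single-transcript genes longer than 1000 bases, by the value that 1 fragment adds. Only 51.0% to 54.3% of low values came within 0.1 of a whole fragment, so no count model was run, and depth was used to judge precision only. Up to 3 fragments is what a count of 0 allows, for counting error alone.

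The members and the gene lists were chosen with earlier results of these data known. Named besides the members were, from each list and comparison, up to 4 genes with an adjusted p under 0.05 and groups without overlap, by smallest p, and the 3 genes most like each of the 3 members with the smallest p. Osmr, Junb, Fos, Ifnb1, Ifng and Ptpn6, outside that rule or its limit, were named after their values were seen. Markers of lymphocytes, epithelium and endothelium were also checked, and none was above 1 FPKM in all libraries. Alternatives were other pseudocounts, filters, scalings and models, and each library left out. Tables were handled with pandas 2.3.3 in Python 3.11.15 with numpy 2.4.6, exact tests with scipy 1.17.1, and plots with matplotlib 3.10.9.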

Additional observations from a re-analysis of the deposited data

How the results depend on the processing

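Without the intensity trend, or with only the 2 groups compared in the model, 0 members passed in TNF-α against Con and 0 in TNF-α+WBT against Con, where 2 and 1 had passed, and 2 passed in the latter with a pseudocount of 1 or a filter at a mean of 1 FPKM. With 1 library left out these counts were 0 to 2 and 0 to 1. Over all genes with an adjusted p under 0.05, TNF-α+WBT against TNF-α gave 1 gene, 11 with a pseudocount of 0.01, 7 without the trend, 2 with only its groups, 2 with summed transcript values and 0 to 10 with a library left out. The other comparisons gave 1236 (823 to 1111 with a library left out) and 942 (579 to 826). Genes with p under 0.05 and a fold over 2 numbered 615, 284 and 583 in TNF-α against Con, TNF-α+WBT against TNF-α and TNF-α+WBT against Con, 1057, 639 and 1040 with a pseudocount of 0.01, 128, 8 and 105 with 1, and 207, 14 and 167 with the filter at a mean of 1 FPKM, which tests fewer genes. The cause of the other differences was not tested. Of 27 member results 8 changed sign, all of them far from the threshold. In TNF-α+WBT against TNF-α, Stat3 gave 0.00535 on the log2 scale with quantile normalization, and with a library left out Stat2 ranged from -0.0147 to 0.0821, Stat3 from -0.0185 to 0.0288, Stat5a from -0.0378 to 0.137 and Stat6 from -0.00874 to 0.030. Stat3 ranged from -0.0716 to 0.0379 in TNF-α against Con and from -0.0718 to 0.0377 in TNF-α+WBT against Con, and in TNF-α+WBT against Con Stat5b ranged from -0.0721 to 0.0136 and Cish from -0.105 to 0.306. Of 32 calls of named list genes 26 held under every setting and with each library left out, and none reversed. With the replicate number as a block 1 member, Socs3, passed in TNF-α against Con (Stat2 had an adjusted p of 0.055) and 0 of all genes in TNF-α+WBT against TNF-α. Deviations of same-numbered libraries from their group means correlated between -0.067 and 0.095, so the numbers were not taken to pair the samples. Cish rests on the fewest fragments, and no group is larger than 3 libraries.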
